A study of Mus musculus with 9 samples.

Results

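Class I antigen presentation displays short peptides from inside a cell on its surface. Proteasomes cut proteins into peptides, the transporter Tap1/Tap2 carries the peptides into the endoplasmic reticulum, the chaperone tapasin (Tapbp) brings the transporter to the class I molecule, and a heavy chain such as H2-D1 or H2-K1 then leaves for the surface with its light chain B2m. Interferons raise many of these genes together with antiviral effectors. Type I interferon acts through a complex that contains STAT2 and IRF9 and binds interferon-stimulated response elements, whereas interferon gamma acts mainly through factors that bind gamma-activated sites. Healthy neurons of the retina are generally regarded as poor in class I molecules, and B2m and class I heavy chains have been studied in retinal ganglion cells (RGCs) for their part in synapse refinement.

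The genes described here are 9 members of these pathways, chosen by symbol: the class I chains B2m, H2-D1 and H2-K1, the peptide loading genes Tap1 and Tapbp, the signalling gene Irf9, and the interferon-induced effectors Ifit1, Ifit3 and Bst2. All 9 were listed among 23997 gene symbols. Their levels were compared in RGCs of C57BL/6J mice whose eyes had been injected with saline (Control) or with microbeads that raised the intraocular pressure (IOP) for 2 weeks. The labels give an age of 8 weeks at collection and the series design gives 6 weeks, which by the methods was the age at injection. Microbead eyes were placed in the Mild IOP or the Moderate IOP group by their measured pressure, so both groups share the injection, and no other allele or agent separates the groups. RGCs were isolated by immunopanning, with negative steps against microglia, macrophages, endothelial cells and amacrine cells and a final positive step on Thy1.2. The RNA of several eyes of a group, fewest in Moderate IOP, went into 1 pool, from which 3 libraries were made. The 9 libraries are therefore technical replicates of 3 pools, and every p-value below covers only the spread within pools and not variation between animals.

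Values are scaled FPKM (fragments per kilobase of transcript, relative to library depth, divided by a library factor between 0.983 and 1.058). FPKM is a level per transcript length, so levels of different genes can be compared. A log2 fold change is the mean of log2(scaled FPKM + 1) in one group minus that in another, and it understates the change of genes near or below 1 FPKM. Fold changes were tested with limma across 13043 genes and adjusted by the Benjamini-Hochberg method over all of them (FDR), with a call at an FDR below 0.1. The depth of each library, derived from the width of the deposited confidence intervals, was between 4840000 and 8800000 fragments, and derived fragment numbers are given with "about".

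The pools differed in more than pressure. The summed level of 15 RGC markers was 2079 to 2245 FPKM in Control, 1564 to 1954 under Mild IOP and 3123 to 3353 in Moderate IOP. It did not exceed that of 13 Müller glia and astrocyte markers in every library. Those summed to 1881 to 2149, 1795 to 1986 and 2138 to 2180 FPKM. That glial sum rests largely on Aldoc and Dkk3. Aldoc had means of 1174, 1001 and 1165 FPKM in Control, Mild IOP and Moderate IOP, and Dkk3 of 485, 509 and 423. The glial marker Rlbp1 had means of 4.46, 12.4 and 14.5 FPKM, so the sums do not measure the share of glial RNA. Of the 15 RGC markers 3 were called higher in Moderate IOP than in Control and 9 than in Mild IOP. Of all tested genes 1.84% and 10.2% were called in these comparisons, in either direction. Thy1, which had served for the selection, was among the 9. Rod markers summed to 544 to 614 FPKM in Control and to between 381 and 407 in the other groups. The lens gene Crygs stood at 73.4 ± 2.79 FPKM (SD, n = 3) in Control and was listed at 0 in all 6 other libraries. The Y-linked Ddx3y stood at 2.194 ± 0.868 in Control, 8.88 ± 0.547 under Mild IOP and 0.349 ± 0.222 in Moderate IOP, and Xist, which females transcribe from the inactive X, at 4.74 ± 2.31, 1.57 ± 0.388 and 10.1 ± 0.896 FPKM. These 3 genes were chosen after their values were seen. The makeup of the pools and the pressure group cannot be told apart in this design, and in a pooled sample fewer cells of a type and less RNA per cell cannot be told apart either.

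Promoters are where interferon factors are known to act on several of these genes, so 5 are printed here: 3 that hold the interferon-stimulated response element core and the 2 genes that were called in a comparison. All 9 members matched a RefSeq window by symbol. Each window searched, for the members and for all genes, holds 300 bases, 250 before the RefSeq start and 50 from it on. The sequences are the 250 bases before the RefSeq start on GRCm38.p6, 5′ to 3′ on the gene's strand, and capitals mark matches to 5 motifs searched on both strands. These were GAAANNGAA (core of the interferon-stimulated response element), TTCNNNGAA (gamma-activated site), GGGACTTTC (kappa B), TGACGTCA (cAMP response element) and CCAAT.
B2m (chr2:122147437-122147686, + strand): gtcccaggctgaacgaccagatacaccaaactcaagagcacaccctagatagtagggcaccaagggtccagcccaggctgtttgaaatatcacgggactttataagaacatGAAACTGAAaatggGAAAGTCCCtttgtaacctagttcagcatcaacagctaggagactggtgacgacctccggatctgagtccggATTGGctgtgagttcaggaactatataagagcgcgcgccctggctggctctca
Ifit1 (chr19:34640639-34640888, + strand): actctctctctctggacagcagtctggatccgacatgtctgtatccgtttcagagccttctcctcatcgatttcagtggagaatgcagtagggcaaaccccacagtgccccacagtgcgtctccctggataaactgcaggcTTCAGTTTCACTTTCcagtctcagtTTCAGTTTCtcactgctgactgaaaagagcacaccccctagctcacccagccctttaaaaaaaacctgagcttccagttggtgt
Bst2 (chr8:71537473-71537722, - strand): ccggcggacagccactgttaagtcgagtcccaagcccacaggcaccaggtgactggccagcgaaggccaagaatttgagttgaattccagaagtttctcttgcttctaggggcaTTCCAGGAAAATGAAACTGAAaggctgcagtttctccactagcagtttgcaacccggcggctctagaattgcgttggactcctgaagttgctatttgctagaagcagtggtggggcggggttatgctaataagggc
Irf9 (chr14:55603735-55603984, + strand): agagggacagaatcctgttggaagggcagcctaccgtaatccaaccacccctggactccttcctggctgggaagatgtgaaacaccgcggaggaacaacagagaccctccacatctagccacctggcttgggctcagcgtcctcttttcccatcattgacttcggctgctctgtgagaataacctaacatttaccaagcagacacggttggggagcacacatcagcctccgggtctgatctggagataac
Tapbp (chr17:33919228-33919477, + strand): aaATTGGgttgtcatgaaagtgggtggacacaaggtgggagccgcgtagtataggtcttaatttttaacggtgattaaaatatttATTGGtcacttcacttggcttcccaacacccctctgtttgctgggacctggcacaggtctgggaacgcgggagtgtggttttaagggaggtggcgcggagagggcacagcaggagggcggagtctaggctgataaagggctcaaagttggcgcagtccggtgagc

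B2m, the light chain, held 1 GAAANNGAA match, GAAACTGAA, from 139 to 131 bases before its start, beside a reverse kappa B match and a reverse CCAAT box. Ifit1, the gene of an RNA-binding antiviral protein, held 3 matches between 109 and 76 bases before its start, all on the reverse strand, the first pair of which share 3 letters. Bst2, the gene of the virus-tethering protein tetherin, held 2 overlapping matches and a TTCNNNGAA match that overlaps the first of them, and its RefSeq start lies 35 bases from the start in the deposited files. Ifit3, the partner of Ifit1, also held 3 matches (not shown). The core was thus found in 4 of the 9 genes and in 8.56% of 32851 promoter windows of the same kind. TTCNNNGAA was found in 1 of the 9 genes and in 8.30% of all windows, GGGACTTTC in 1 and 0.353%, TGACGTCA in none and 1.79%, and CCAAT in 6 and 37.4%. The Irf9 window held none of the 5 motifs and the Tapbp window only CCAAT in reverse. A match is a string of letters and not a binding site. A window without one says nothing about more distant sites, or about nearby elements whose letters differ from the pattern searched.

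Per transcript length, H2-D1 and B2m were the highest of the 9 genes in every group. The order of group means in Control was H2-D1, B2m, Tapbp, H2-K1, Ifit3, Irf9, Bst2, Tap1 and Ifit1, from 141 down to 0.595 FPKM. Among neighbours in that order, H2-D1 and B2m overlapped in their replicates, as did Tapbp and H2-K1, Bst2 and Tap1, and Tap1 and Ifit1. In Moderate IOP the order was the same at the top, but Irf9 stood above Ifit3 in the mean, with overlapping replicates, whereas every Irf9 replicate lay below every Ifit3 replicate in Control and Mild IOP. Over all libraries H2-D1 lay above 94.6% of the 13043 tested genes in level, B2m above 91.8% and Ifit1 above 2.98%. All 9 members passed the filter of a mean of at least 0.5 FPKM, but Tap1, Ifit1 and Bst2 rest on few fragments.

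**Figure D1:**
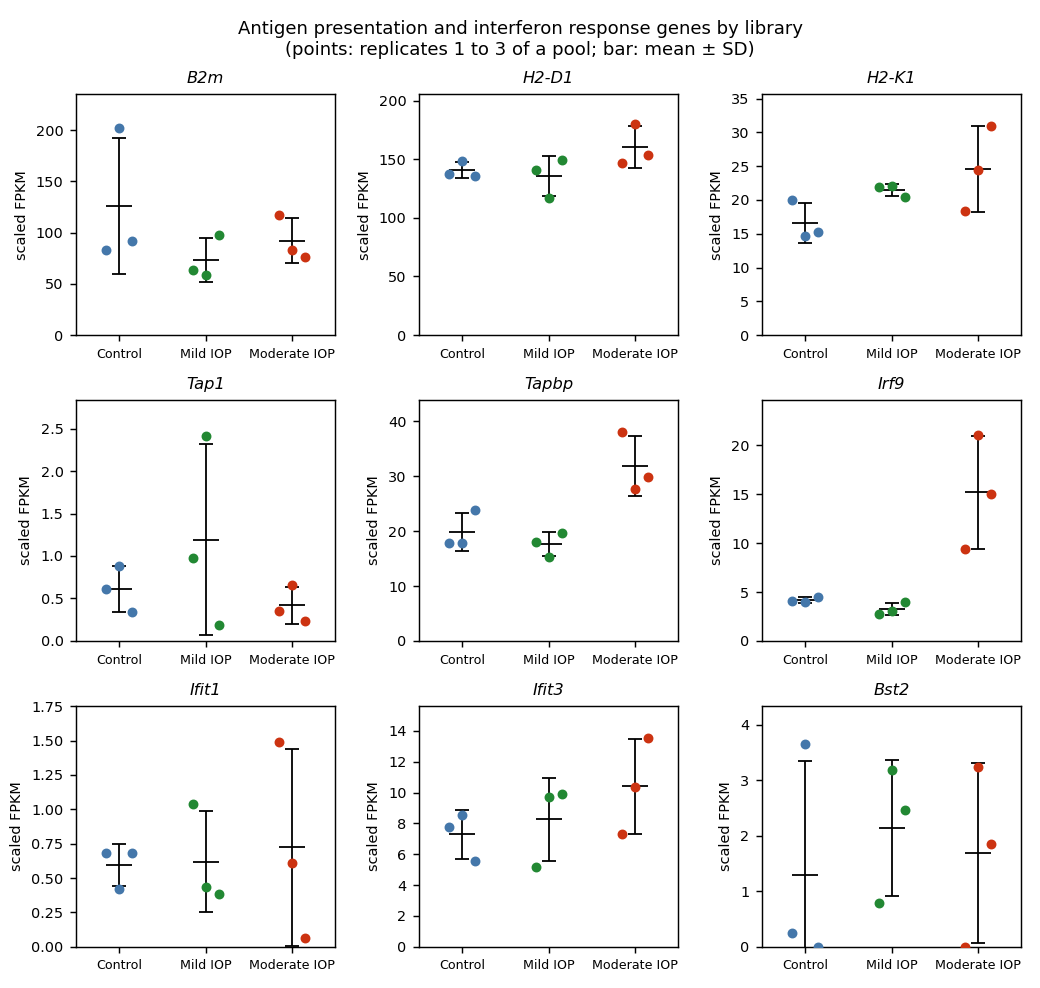
Scaled FPKM of the 9 genes (vertical axes, linear and from 0) in the 3 Control, 3 Mild IOP and 3 Moderate IOP libraries, with replicates 1 to 3 from left to right and bars for mean ± SD, cut at 0 where they would go below it. Irf9 and Tapbp are the genes whose Moderate IOP points lie above all other points, and 1 Control point of B2m, at 202 FPKM, stands apart.

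Irf9, the DNA-binding subunit that completes the type I interferon complex, was the only member called against Control. The gene lies on chromosome 14 of mm10 from 55603985 to 55610030. Its level was 4.09, 3.97 and 4.51 FPKM in Control replicates 1 to 3, from about 63.0, 80.4 and 49.7 fragments. In Mild IOP it was 2.72, 3.06 and 3.97, and in Moderate IOP it was 9.41, 21.1 and 15.1, from about 97.1, 388 and 190.0 fragments. All 3 Moderate IOP replicates lay above all others, and every Mild IOP replicate lay below every Control replicate, the nearest pair by less than 0.01 FPKM. The means were 4.19 ± 0.284 in Control, 3.25 ± 0.645 under Mild IOP and 15.2 ± 5.83 in Moderate IOP (SD, n = 3), a ratio of 3.62 to Control. The SD in Moderate IOP was 38.4% of the mean, where the fragment number alone gives 6.67%, so most of that spread was not counting error. The difference on the log2 scale was 1.57 (standard error 0.27, FDR = 0.029) against Control and 1.87 (standard error 0.27, FDR = 0.0061) against Mild IOP. In Mild IOP it was −0.30 (standard error 0.27, FDR = 0.78) against Control. Without Control replicate 1 the FDR of the rise over Control was 0.105, and without each other library it lay between 0.012 and 0.099. The rise ranked 50 among 13043 genes against Control and 47 against Mild IOP, by log2 fold change.

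The nearest genes beside Irf9 were not called against Control. Rnf31, a subunit of a ubiquitin ligase, ends 310 bases before Irf9 and stood at 8.14, 8.05 and 9.88 FPKM in the 3 group means, with a log2 fold change of 0.25 (FDR = 0.73) in Moderate IOP against Control. Rec8, on the other side, had −0.34 (FDR = 0.58). Psme1 and Psme2, which lie upstream in the same gene cluster, are described with the peptide processing genes. No other RefSeq gene overlaps Irf9.

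The 5 genes most like Irf9 over the 9 libraries, members left out, were Lcn2 (Pearson r = 0.978 on the log2 scale), Ywhah (0.972), Prr7 (0.971), Serbp1 (0.960) and Dok2 (0.959). Irf9 was chosen for this after its values were seen. Lcn2, an iron-carrier binding protein of reactive glia, was listed at 0, 0 and 0.308 FPKM in Control, 0, 0.225 and 0 in Mild IOP, and 2.59, 15.4 and 6.59 in Moderate IOP, so it had the same order of Moderate IOP replicates as Irf9, with replicate 2 highest and replicate 1 lowest. Dok2, a docking protein of haematopoietic cells, was at 0 in all 6 other libraries and at 1.03, 2.56 and 0.962 in Moderate IOP. Ywhah, a 14-3-3 protein of neurons, rose from a mean of 598 to 809 FPKM and thus by a smaller ratio. These correlations describe 9 libraries that share 3 pools.

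Tapbp, the gene of tapasin (chromosome 17, 33919478 to 33929290), was called in Moderate IOP against Mild IOP and missed the call against Control. It stood at 17.9, 17.7 and 23.9 FPKM in Control and at 18.0, 15.3 and 19.7 in Mild IOP. In Moderate IOP it stood at 38.02, 27.7 and 29.9, from about 447, 573 and 393 fragments. Every Moderate IOP replicate lay above every other replicate, and Control and Mild IOP overlapped. The mean was 19.8 ± 3.52 in Control, 17.7 ± 2.22 under Mild IOP and 31.9 ± 5.44 in Moderate IOP (SD, n = 3). The log2 fold change against Mild IOP was 0.81 (standard error 0.18, FDR = 0.028), and against Control it was 0.66 (standard error 0.18, FDR = 0.13). The call against Mild IOP was lost without Mild IOP replicate 2 (FDR = 0.115), and a call against Control was gained without Control replicate 3 (FDR = 0.095). The lncRNA Gm19412 overlaps the 5′ part of Tapbp in RefSeq, and the library kit does not mark strand, so reads of both could not be told apart.

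Tap1 (chromosome 17, 34187556 to 34197225), one chain of the peptide transporter, was low everywhere. Its levels were 0.606, 0.884 and 0.346 FPKM in Control, 0.974, 2.41 and 0.189 under Mild IOP and 0.357, 0.658 and 0.239 in Moderate IOP, from about 1.95 to 47.0 fragments. The groups overlapped and the replicates of Mild IOP spanned the range of all others. The log2 fold changes were 0.33 and −0.18 against Control in Mild and Moderate IOP (95% confidence intervals −0.51 to 1.16 and −1.02 to 0.65, FDR = 0.84 and 0.86). Tap2, the other chain, had log2 fold changes of 0.19 (FDR = 0.87) and 0.45 (FDR = 0.44). The 2 loading genes of the members therefore differed in level, at means of 23.1 for Tapbp and 0.741 FPKM for Tap1 over all libraries.

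B2m (chromosome 2, 122147687 to 122153082) had 83.5, 202 and 91.5 FPKM in Control, 63.8, 58.5 and 97.9 under Mild IOP and 117, 82.8 and 76.0 in Moderate IOP. Control replicate 2 stood at least 2 times above both other Control replicates, and all other libraries of the 3 groups overlapped. Its excess was not counting error, since the Control SD was 52.8% of the mean and about 395, 1178 and 294 fragments lay behind the values. Of 1495 genes with a mean between 50 and 200 FPKM, 10 had a spread among Control replicates at least as large as B2m, itself included, and 4 were at least 2 times higher in Control replicate 2 than in both others: B2m, Hist1h2ao, Mir703 and Rps20. The log2 fold change of B2m was −0.69 (standard error 0.32, FDR = 0.50) under Mild IOP and −0.35 (FDR = 0.64) in Moderate IOP. Without Control replicate 2 these values were −0.28 and 0.05, so the sign in Moderate IOP rests on that library. Patl2 spans B2m in RefSeq but had a mean of at most 0.0585 FPKM in any group.

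H2-D1 (chromosome 17, 35263094 to 35267497), a classical class I heavy chain, varied little. It stood at 138, 148 and 136 FPKM in Control, 141, 117 and 150 under Mild IOP and 147, 180 and 154 in Moderate IOP, from about 740 to 1215 fragments. The groups overlapped, and the SD was 4.90%, 12.5% and 11.0% of the mean. The log2 fold change was −0.06 (95% confidence interval −0.34 to 0.23, FDR = 0.93) under Mild IOP and 0.18 (−0.10 to 0.47, FDR = 0.53) in Moderate IOP. The interval in Moderate IOP against Control reaches up to 0.47 on the log2 scale and covers only the spread within pools.

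H2-K1 (chromosome 17, 33996012 to 34000333), the other classical heavy chain, was lower than H2-D1 in every library. It stood at 20.0, 14.6 and 15.3 FPKM in Control, 21.97, 22.1 and 20.5 under Mild IOP and 18.3, 24.5 and 31.0 in Moderate IOP. All Mild IOP replicates lay above all Control replicates by a narrow margin, and Moderate IOP overlapped with both. The log2 fold change was 0.37 (FDR = 0.60, standard error 0.20) under Mild IOP and 0.52 (standard error 0.20, unadjusted p = 0.024, FDR = 0.25, limma) in Moderate IOP. Class I heavy chain genes are near-identical in parts, so the way the authors' estimate shared reads among H2-D1, H2-K1 and their relatives is uncertain. The ratio of H2-D1 to H2-K1 lay between 6.90 and 10.2 in Control, 5.29 and 7.30 under Mild IOP and 4.97 and 8.02 in Moderate IOP. Both heavy chains together had 0.805 to 1.89 times the level of B2m in Control, 1.74 to 2.56 times under Mild IOP and 1.41 to 2.47 times in Moderate IOP, with the lowest ratio in Control replicate 2.

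The effectors Ifit3, Ifit1 and Bst2 all hold response element matches in their promoters and were not called in any comparison. Ifit3 (chromosome 19, 34583529 to 34588982) stood at 7.78, 8.57 and 5.53 FPKM in Control, 5.17, 9.69 and 9.92 under Mild IOP and 7.33, 10.4 and 13.5 in Moderate IOP. The groups overlapped, and the log2 fold change was 0.13 (standard error 0.29, FDR = 0.93) under Mild IOP and 0.44 (standard error 0.29, FDR = 0.50) in Moderate IOP. Ifit3 has a near-identical copy, Ifit3b, with which it can share reads and which was not listed under that symbol. Ifit1 (chromosome 19, 34640889 to 34650009) stood at 0.685, 0.417 and 0.683 FPKM in Control, 1.04, 0.437 and 0.381 under Mild IOP and 1.49, 0.613 and 0.0654 in Moderate IOP. The protein-coding gene Ifit1bl1 spans Ifit1 in RefSeq and was not listed under that symbol. Between about 1.00 and 19.0 fragments lay behind a value of Ifit1, and the Moderate IOP replicates enclosed all others. Its log2 fold changes were 0.00 and 0.03, with 95% confidence intervals of −0.76 to 0.77 and −0.74 to 0.80. Bst2 (chromosome 8, 71534262 to 71537437) stood at 0.250, 3.66 and 0 FPKM in Control, 0.793, 3.19 and 2.46 under Mild IOP and 0, 3.24 and 1.85 in Moderate IOP, from at most about 18.0 fragments. The groups overlapped, with a value of 0 in both Control and Moderate IOP, and the 95% confidence interval in Moderate IOP against Control was −1.07 to 1.77 on the log2 scale. The intervals of Ifit1 and Bst2 in Moderate IOP against Control include a rise and a fall by a factor of 1.5 on this scale. The SD of Bst2 in Control was 157% of the mean, where the fragment number alone gives 39.8%.

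**Figure D2:**
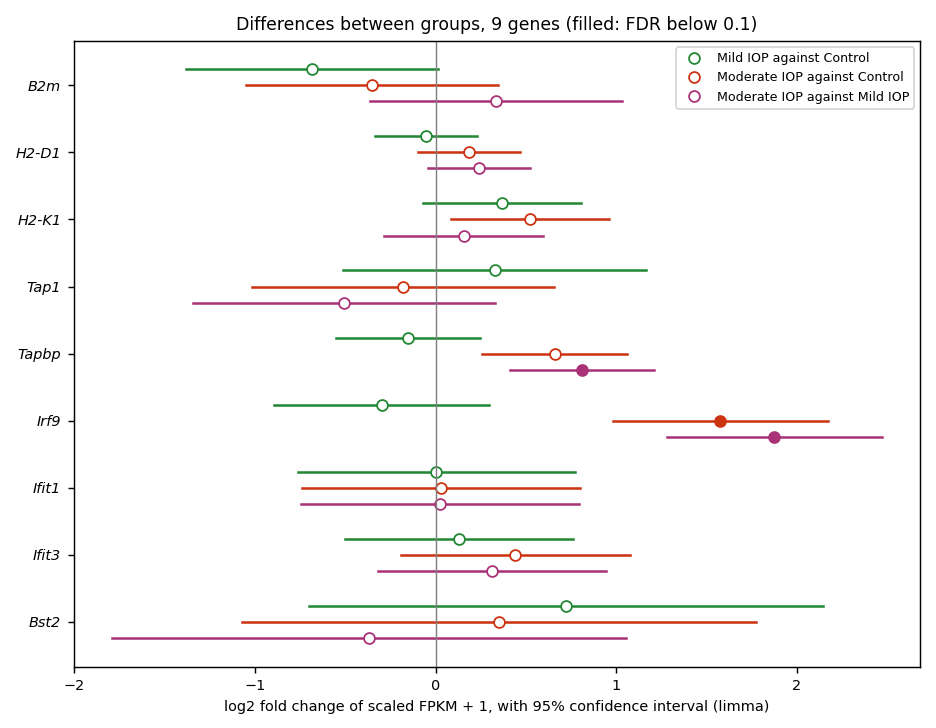
Log2 fold change of scaled FPKM + 1 (horizontal axis) of each of the 9 genes in Mild IOP against Control, Moderate IOP against Control and Moderate IOP against Mild IOP, with 95% confidence intervals from limma and filled symbols at an FDR below 0.1. The filled symbols are Irf9 at 1.57 and 1.87 and Tapbp at 0.81, and the widest intervals belong to Bst2.

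Counted over the members, 0 of 9 were called in Mild IOP against Control, where 0.399% of all tested genes were called. In Moderate IOP against Control 1 of 9 was called, against 1.84% of all genes, and in Moderate IOP against Mild IOP 2 of 9, against 10.2%. Unadjusted p-values below 0.05 were reached by 0, 3 and 2 members, and by 10.2%, 15.3% and 21.8% of all genes. Replicates of the groups did not overlap for 2 of 9 members in each comparison, and for 17.1%, 19.4% and 27.5% of all genes. The median log2 fold change of the members was 0.00, 0.35 and 0.24, beside 0.01, 0.00 and −0.02 over all genes. Both comparisons with Control use the same 3 Control libraries. The members did not move as one: over the 9 libraries, Irf9 followed Tapbp (Pearson r = 0.792) and H2-D1 (0.767) most closely, while Ifit1 ran against Ifit3 (−0.739) and B2m against H2-K1 (−0.657). These correlations are descriptive, since libraries of a group share a pool and Control replicate 2 weighs heavily on B2m.

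The 5 genes most like the mean z score of the members were Mpst (r = 0.951), Apbb2 (0.924), Ppap2b (0.920), Utp14b (0.917) and Ptpn11 (0.915). Mpst, a sulfurtransferase, had means of 0.227, 0.219 and 2.92 FPKM in Control, Mild IOP and Moderate IOP. The 5 genes most like B2m alone were Lrig1 (0.907), Pigu (0.890), 1700020L24Rik (0.889), Hsd17b2 (0.887) and Stk16 (0.873). Of these 5, all but 1700020L24Rik were highest in Control replicate 2, as B2m was.

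A wider set of 155 symbols in 5 lists was then examined to place the members in their pathways. Of these, 152 were listed and 95 were tested, 86 of them not members. Of the 86, 0 were called in Mild IOP against Control, 2 in Moderate IOP against Control (2.33%, against 1.84% of all genes) and 9 in Moderate IOP against Mild IOP, where 10.2% of all genes were called. These shares were near those of all genes. The median log2 fold change of the 86 was −0.03, 0.10 and 0.23 in the 3 comparisons.

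**Figure D3:**
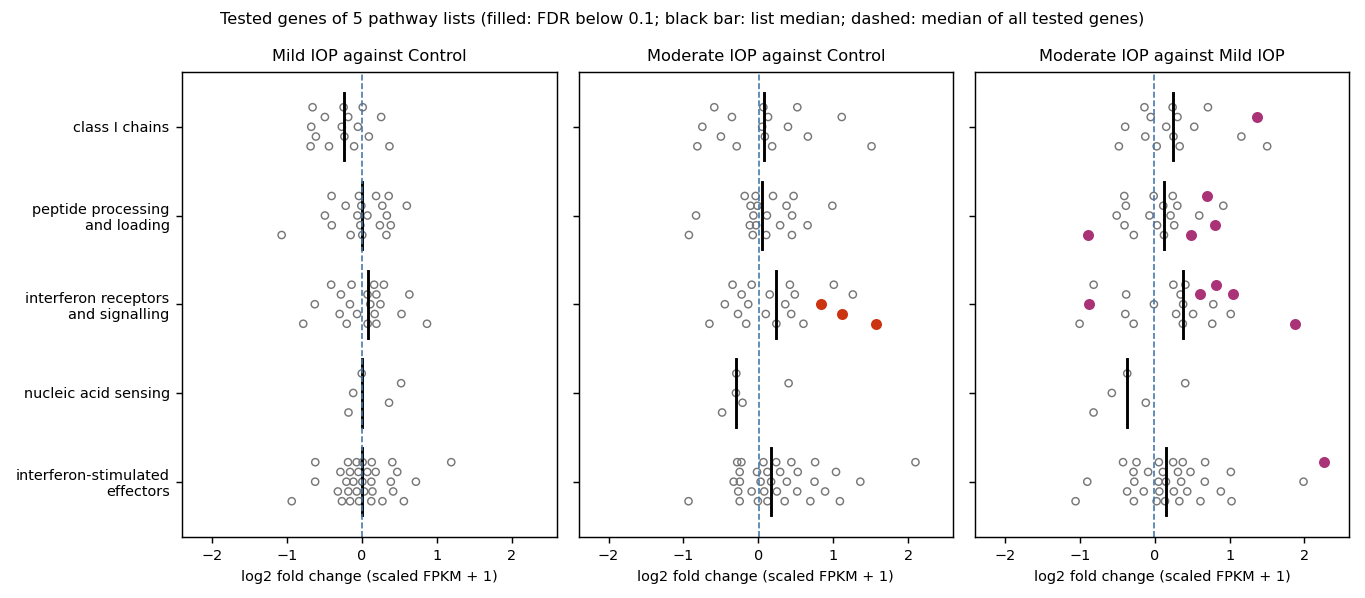
Log2 fold change (horizontal axes) of the tested genes of 5 pathway lists, members included, in the 3 comparisons, with filled points at an FDR below 0.1, black bars at list medians and a dashed line at the median of all tested genes. No point is filled in Mild IOP against Control, and in Moderate IOP against Control the 3 filled points, Irf9 and Stat3 among them, all lie in the signalling list.

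Receptors and signalling genes of the interferon pathway held both non-member calls against Control. Of 21 tested genes of this list, Irf9 included, 3 rose in Moderate IOP against Control, and 4 rose and 1 fell against Mild IOP, with list medians of 0.24 and 0.38. The shares of all tested genes called in these 2 comparisons were 1.84% and 10.2%. Stat3, which serves cytokines of the interleukin-6 family more than interferons, rose from 7.47 ± 0.340 in Control and 9.51 ± 2.12 in Mild IOP to 17.5 ± 3.62 FPKM in Moderate IOP (SD, n = 3). Its log2 fold change was 1.11 (FDR = 0.040, standard error 0.21) against Control and 0.82 (FDR = 0.047) against Mild IOP. The call of Stat3 against Control was lost without Control replicate 1, Control replicate 2 or Moderate IOP replicate 2, with an FDR of at most 0.136. The call against Mild IOP was lost without Mild IOP replicate 2, Moderate IOP replicate 1 or Moderate IOP replicate 2, with an FDR of at most 0.186.

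Stat2, a partner of Irf9 in its DNA-binding complex, had 5.33, 5.59 and 7.84 FPKM in Control, 5.50, 8.21 and 8.18 under Mild IOP and 7.68, 4.92 and 4.96 in Moderate IOP. The groups overlapped, with a log2 fold change of −0.09 (FDR = 0.90, standard error 0.25) in Moderate IOP. The ratio of Irf9 to Stat2 lay between 0.576 and 0.768 in Control, 0.373 and 0.494 under Mild IOP and 1.23 and 4.28 in Moderate IOP. Stat2 and this ratio were chosen for the role of the gene, after values were seen, and the ratio was not tested.

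Kinases and receptors were less alike. Jak2, a kinase of the interferon gamma and other cytokine receptors, was lower in Moderate IOP than in Mild IOP by 0.87 on the log2 scale (from 7.77 ± 1.24 to 3.87 ± 1.23 FPKM, FDR = 0.058). Ptpn11, a phosphatase on the same receptors, was higher by 0.60 (FDR = 0.087), at 16.2 ± 0.973 and 25.1 ± 2.74 FPKM. The Jak2 call was lost without Mild IOP replicate 1, Mild IOP replicate 2 or Moderate IOP replicate 3 (FDR up to 0.221) and in 1 of 9 other alternatives. The Ptpn11 call was lost without any 1 of the 6 Mild and Moderate IOP libraries (FDR up to 0.215) and in 4 of 9 other alternatives. Jak1, the kinase of both receptor types, stood at 31.8, 34.3 and 34.2 FPKM in the 3 group means, with log2 fold changes of 0.11 and 0.10 against Control. Tyk2, a kinase of the type I receptor, had 0.16 (FDR = 0.92) and −0.65 (FDR = 0.36). The receptor chain Ifnar1 had group means of 4.39, 4.08 and 2.96 FPKM and Ifnar2 of 16.5, 14.5 and 19.5. The gamma receptor chains were higher, with Ifngr1 at 26.3, 20.6 and 39.4 FPKM and Ifngr2 at 72.0, 54.2 and 64.2, and none of the 4 chains was called. Socs3, the feedback inhibitor that Stat3 induces, stood at 0.717, 1.05 and 3.57 FPKM and had a log2 fold change of 1.26 (FDR = 0.16) in Moderate IOP against Control. Irf1 had log2 fold changes of 0.63 (FDR = 0.61) and 1.01 (FDR = 0.22) in Mild and Moderate IOP against Control. Irf7 had 0.08 (FDR = 0.96) and 0.42 (FDR = 0.58), and Irf3 had −0.78 (FDR = 0.22) and −0.27 (FDR = 0.60). The interferon genes Ifnb1 and Ifng were listed at 0 in all 9 libraries.

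**Figure D4:**
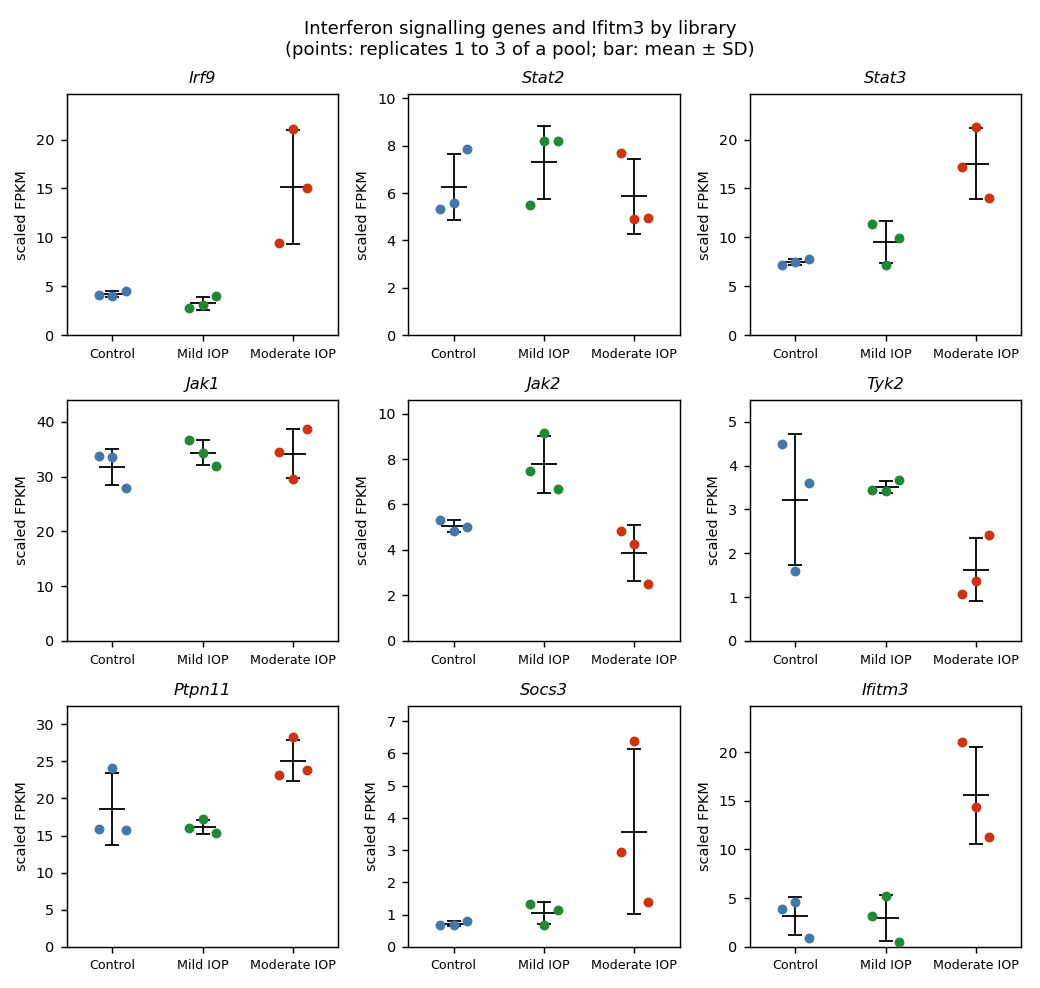
Scaled FPKM (vertical axes, linear and from 0) of Irf9, 7 other signalling genes and Ifitm3 in each library, with replicates 1 to 3 from left to right and bars for mean ± SD, cut at 0. Irf9, Stat3, Socs3 (by a small margin) and Ifitm3 have all Moderate IOP points above all others, while Stat2 and Jak1 overlap between groups.

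Interferon-stimulated effectors showed no call against Control. Of 72 symbols 69 were listed and 33 tested, Ifit1, Ifit3 and Bst2 among them. Called genes numbered 0 under Mild IOP and 0 in Moderate IOP against Control by limma, with unadjusted p-values below 0.05 in 0 and 5, and 1 in Moderate IOP against Mild IOP. Of all tested genes 0.399%, 1.84% and 10.2% were called in the 3 comparisons. The list medians were 0.00, 0.17 and 0.15. The called gene was Ifitm3, which blocks virus entry at endosomes and is also made by glia and vessel cells. It stood at 3.92, 4.55 and 0.944 FPKM in Control, 3.15, 5.24 and 0.470 under Mild IOP and 21.1, 14.4 and 11.3 in Moderate IOP, from about 41.4, 53.9 and 28.0 fragments. Its log2 fold change was 2.26 against Mild IOP (standard error 0.53, FDR = 0.033) and 2.10 against Control (FDR = 0.11). The highest genes of the list, Ly6e, Adar and Shisa5, had log2 fold changes of 0.25, −0.28 and 0.17 in Moderate IOP against Control, with an FDR of 0.36 or above. Of the typical markers of a strong type I response, Isg15 and Mx1 were near the floor. Isg15 had a value above 0 in 3 of 9 libraries and at most 2.33 FPKM, and Mx1 had at most 0.0514 FPKM. Other effectors stood higher, with means over all libraries of 12.4 FPKM for Cmpk2, 4.92 for Ifit2 and 4.13 for Oasl2. In every library, 25 of the 69 genes were below 1 FPKM. Ifit2, a neighbour of Ifit1 and Ifit3, had log2 fold changes of 0.03 and −0.25 (FDR = 0.99 and 0.75). Oasl2, an oligoadenylate synthetase relative, had 0.14 and 0.75 (FDR = 0.90 and 0.17). Ifi35 had 0.42 and 1.09 (FDR = 0.78 and 0.20), Lgals3bp 0.56 and 1.04 (FDR = 0.64 and 0.19), and Cmpk2 0.38 and 0.24 (FDR = 0.51 and 0.56). All Moderate IOP replicates of Oasl2, Ifi35 and Lgals3bp lay above all Control replicates. Replicates of these groups did not overlap, in either direction, for 19.4% of all genes.

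Of 20 tested peptide processing and loading genes, 0 were called against Control in either group by limma, with unadjusted p-values below 0.05 in 5 under Mild IOP and 2 under Moderate IOP, beside 10.2% and 15.3% of all genes. In Moderate IOP against Mild IOP 3 rose and 1 fell, Tapbp included, beside 10.2% of all genes called. The list medians were 0.00, 0.05 and 0.12 in the 3 comparisons. Psme1 and Psme2 encode the subunits of the proteasome activator PA28 that interferon gamma induces. Psme1 stood at 162, 166 and 152 FPKM in Control, 124, 102 and 115 under Mild IOP and 158, 174 and 146 in Moderate IOP, so its Moderate IOP replicates overlapped with Control and lay above Mild IOP. Its log2 fold change was 0.48 against Mild IOP (standard error 0.12, FDR = 0.038) and −0.01 against Control (FDR = 0.98). Psme2 had 0.69 (FDR = 0.047) and 0.29 (FDR = 0.47). Both calls were lost without Mild IOP replicate 2 or Moderate IOP replicate 2 (FDR up to 0.129 for Psme1 and 0.161 for Psme2) and with no variance trend. Psme1 overlaps Emc9 by a few bases in RefSeq. Rfx5, a subunit of the factor that drives class I and class II promoters, was lower by 0.89 on the log2 scale in Moderate IOP than in Mild IOP (FDR = 0.073), at 2.88 ± 0.672 against 6.23 ± 1.72 FPKM. That call was lost without Mild IOP replicate 1, Mild IOP replicate 2, Moderate IOP replicate 2 or Moderate IOP replicate 3 (FDR up to 0.236) and in 2 of 9 other alternatives. Nlrc5, the class I transactivator, was at 0 in 8 libraries and at 0.0147 FPKM in the other. The immunoproteasome gene Psmb8 stood at 0.652, 1.02 and 2.79 FPKM in the 3 group means and Psmb9 at 1.54, 0.189 and 0.573, with no call. The folding chaperones Calr and Pdia3 were the highest genes beside Psme1, and their log2 fold changes lay between −0.07 and 0.00 against Control.

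Of 16 tested class I chains, members included, 0 were called against Control, and Cd1d1 was called in Moderate IOP against Mild IOP. Of all tested genes 0.399% and 1.84% were called against Control in Mild and Moderate IOP, and 10.2% between them. Cd1d1, which presents lipids, had a log2 fold change of 1.36 (FDR = 0.081) from 0.189 ± 0.167 to 2.29 ± 1.55 FPKM, on about 18.0, 11.9 and 38.8 fragments in Moderate IOP. The call was lost in 4 of 8 other alternatives and without any 1 of the Mild IOP libraries, Moderate IOP replicate 1 or Moderate IOP replicate 3 (FDR up to 0.214). The highest chains beside the members were H2-T23 at 15.8, 9.82 and 16.8 FPKM in the group means, H2-Q7 at 9.96, 4.95 and 4.83, and H2-Q6 at 3.03, 2.53 and 5.37. H2-T23, the nonclassical chain that NK receptors read, had a log2 fold change of −0.66 (FDR = 0.33) under Mild IOP and 0.05 (FDR = 0.94) in Moderate IOP. H2-L, which the H-2b haplotype of C57BL/6J lacks, was above 0.1 FPKM in 3 libraries, at up to 2.06 FPKM. Of 14 nucleic acid sensing genes 5 were tested and 0 were called in any comparison by limma, with unadjusted p-values below 0.05 in 0, 0 and 1. The kinase Tbk1 was the highest of them at 17.5, 17.5 and 25.3 FPKM in the group means, and 7 of the 14 were below 1 FPKM in every library.

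Cells other than RGCs express many of these genes, so the markers of such cells are given beside the members. For the calls below, the shares of all tested genes called were 0.399%, 1.84% and 10.2% in the 3 comparisons. The 18 microglia and macrophage genes summed to 90.6 to 96.3 FPKM in Control, 74.9 to 101 under Mild IOP and 103 to 233 in Moderate IOP. Of the 16 tested, 0 were called against Control, and C1qc was called in Moderate IOP against Mild IOP. Without Fcer1g, the gene of an Fc receptor chain, the sums were 67.2 to 75.2, 63.6 to 85.0 and 75.0 to 91.6 FPKM. Fcer1g stood at 150, 95.5 and 11.0 FPKM in Moderate IOP replicates 1 to 3, so the highest sum, in replicate 1, rests largely on that gene. C1qb stood at 8.89, 13.2 and 16.8 FPKM in the group means, C1qc at 13.1, 7.2 and 14.5, and Ctss at 15.1, 20.8 and 16.1. The log2 fold change of C1qb in Moderate IOP against Control was 0.84 (FDR = 0.13). The microglial genes Aif1, Tmem119 and P2ry12, chosen after values were seen, had at most 4.55, 2.01 and 1.22 FPKM in any library. Class II and antigen-presenting cell genes summed to 22.9 to 31.5, 17.6 to 33.9 and 31.0 to 43.9 FPKM, with 0 of 7 tested genes called and Itgax at 0 in all libraries. Their median log2 fold changes were 0.10, 0.60 and 0.76 in the 3 comparisons. Unadjusted limma p-values below 0.05 were reached by 0, 3 and 1 of the 7, and by 10.2%, 15.3% and 21.8% of all genes. Lymphocyte genes summed to at most 1.62 FPKM in Control, 0.727 under Mild IOP and 4.13 in Moderate IOP, none passed the filter, and Cd79a and Gzma were at 0 throughout. Endothelial and pericyte genes summed to 3.10 to 5.75, 8.70 to 14.7 and 8.40 to 10.6 FPKM, with 0 of 4 tested genes called and Cldn5, Cdh5 and Tie1 at 0 throughout. Müller glia and astrocyte genes summed to 1881 to 2149, 1795 to 1986 and 2138 to 2180 FPKM, and 2 of 11, Rlbp1 and Apoe, were called higher in Moderate IOP than in Control, beside 1.84% of all genes. In Moderate IOP against Mild IOP 3 of these 11, Apoe, Clu and Glul, were called higher, beside 10.2% of all genes, with a list median of 0.51. Blood genes summed to 16.2 to 35.4, 8.16 to 20.6 and 6.82 to 13.0 FPKM. The part of these cells, and of the higher RGC marker level in Moderate IOP, in the levels of Irf9 and Tapbp was not tested.

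**Figure D5:**
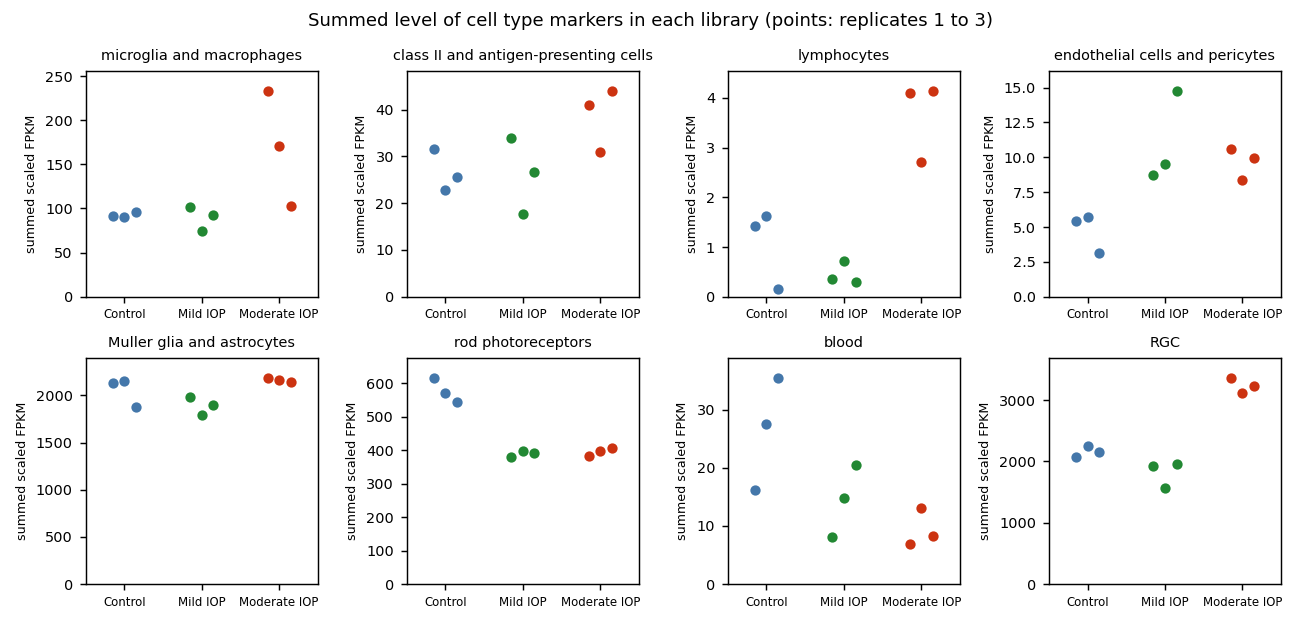
Summed scaled FPKM (vertical axes, linear and from 0) of 8 marker lists in each library, with replicates 1 to 3 of each group from left to right. RGC markers are highest in Moderate IOP at 3123 to 3353 FPKM, rod markers are highest in Control, and the microglial sum of Moderate IOP spreads from 103 to 233.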

How the data were processed

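RGC mRNA of 3 pools (Control, Mild IOP, Moderate IOP) was measured in 9 libraries made with an oligo-dT primed full-length cDNA kit that does not mark strand. Per the submitters' processing notes the authors used FastQC, Trimmomatic, TopHat2, Cufflinks and Cuffdiff on mm10, whereas the methods name another aligner. The deposited files give, library by library, the FPKM that the authors estimated for every gene locus, its confidence interval and a status. The authors' own tests were not used.

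Loci that share a symbol were added up. Fragments were derived as (2 × FPKM / (upper bound − FPKM)) squared, which runs low for abundant genes. Genes with a failed estimate (2 genes) were left out. Each library was divided by its median-of-ratios factor. Genes whose scaled FPKM averaged 0.5 or more entered a limma fit (version 3.58.1, R 4.3.3) of log2(scaled FPKM + 1), with 1 coefficient for each of the 3 groups and a variance trend. Tables and figures were made in Python 3.11.15. The fit was tested on simulated data. Replicate numbers did not pair libraries, since deviations from group means correlated between −0.005 and 0.044 for equal numbers.

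The 9 genes, the lists and the tests were chosen with earlier results of these data known. Named genes are the members, the called genes and the 3 highest of each list, and the 5 most like the members' mean and B2m. Genes added for their role after values were seen are Stat2, Ifnar1, Ifnar2, Tyk2, the neighbours of Irf9 and the genes most like it, Socs3, Tap2, Nlrc5, Psmb8, Psmb9, H2-L, Ifit2, Isg15, Oasl2, Mx1, Aif1, Tmem119 and P2ry12. Irf1, Irf3, Irf7, Ifi35, Lgals3bp and Cmpk2 were added in the same way. Alternatives tried were no rescaling, upper-quartile scaling, a pseudocount of 0.1, no filter, a mean of at least 2, failed estimates kept, only the 2 groups compared, no variance trend, a replicate block and leaving out each library in turn. Reads, quantitative PCR and pathway scores were not analysed here, and 1 gene that the list counts include is not reported here.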

Additional observations from a re-analysis of the deposited data

Results flagged for a closer look

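Irf9 and Tapbp differed between the pressure levels in the direct test of Moderate IOP against Mild IOP, which is also the test of whether their changes from the shared Control differ. The difference was 1.87 for Irf9 (95% confidence interval 1.28 to 2.47, FDR = 0.0061, limma) and 0.81 for Tapbp (0.41 to 1.21, FDR = 0.028) on the log2 scale. Each was higher in 3 of 3 Moderate IOP libraries than in all Mild IOP libraries. Groups of 3 libraries were too small for a search for single outlying libraries.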

How the results depend on the processing

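Members called numbered 0, 1 and 2 (Mild IOP against Control, Moderate IOP against Control, Moderate against Mild IOP) under each of 9 alternatives, and without 1 library 0 to 0, 0 to 2 and 1 to 2. Wider-list calls in Moderate IOP against Control fell from 2 to 1 with no rescaling, a pseudocount of 0.1 or no filter, and were 0 to 3 without 1 library (0 without Control replicate 1, Control replicate 2 or Moderate IOP replicate 2, and 1 without Mild IOP replicate 1 or Moderate IOP replicate 1). Against Mild IOP they were 6 to 11 under other alternatives and 3 to 12 without 1 library (3 without Mild IOP replicate 2, 5 without Mild IOP replicate 1 or Moderate IOP replicate 2). The replicate block gave 0, 1 and 2 members, 0, 2 and 9 wider-list genes and 25, 135 and 1120 of all genes in place of 52, 240 and 1324.

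All-gene counts also moved to 24, 15 and 11 in Mild IOP (no filter, no variance trend, 2 groups only), to 144 and 134 in Moderate IOP (no trend, 2 groups only) and to 839 between them (no trend). Without 1 library they were 15 to 183, 61 to 287 and 519 to 1399. With no rescaling, 107 rose and 148 fell in Moderate IOP in place of 124 and 116, and 731 and 662 against Mild IOP in place of 917 and 407. The causes were not tested.

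Over 251 refits of 14 called log2 fold changes, 57 lost the call and 0 reversed. Signs of uncalled ones reversed for Ifit1 with a pseudocount of 0.1 (−0.0354 in Mild IOP, −0.25 in Moderate IOP, −0.22 between them) and with no rescaling (−0.00567 between them). Without 1 library, ranges that crossed 0 were −0.59 to 0.0483 for B2m (Moderate IOP against Control), −0.13 to 0.0442 for H2-D1 (Mild IOP against Control), −0.0194 to 0.34 for H2-K1 (Moderate IOP against Mild IOP), −0.0612 to 0.70 for Tap1 (Mild IOP against Control), −0.17 to 0.11 for Ifit1 (Mild IOP against Control), −0.28 to 0.34 for Ifit1 (Moderate IOP against Control), −0.28 to 0.33 for Ifit1 (Moderate IOP against Mild IOP), −0.0329 to 0.40 for Ifit3 (Mild IOP against Control), −0.0913 to 1.04 for Bst2 (Moderate IOP against Control) and −0.81 to 0.23 for Bst2 (Moderate IOP against Mild IOP).

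Tap1, Ifit1 and Bst2 had low levels and few fragments, and a mean filter of 2 FPKM removed them. With 1 pool a group no value speaks of variation between animals.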
